A study of Homo sapiens with 9 samples.

Results

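The 10 genes described here, of 63187 in the count table, encode the proteins that make, sense and break down prostaglandin E2 (PGE2). They were chosen by name, as PLA2G4A, PTGS1, PTGS2, PTGES, PTGES2, PTGES3, PTGER2, PTGER4, HPGD and PTGR1, with the higher level of PTGES in cells exposed to the carrier liquid already known from the same libraries. All 10 had at least 10 counts in at least 3 libraries and were among the 16030 genes tested, although HPGD reached 10 counts in only 4 libraries, 3 of them of batch 4. Because the treatment comparisons were known when the genes were selected, their values in those comparisons are given as a description.

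The study examined how aerosol condensates of e-cigarettes affect gene expression in BEAS-2B, an immortalized line of human bronchial epithelial cells grown in DMEM with fetal bovine serum. Control cells were left untreated. PG/VG cells received for 24 h a 2% (v/v) dilution of condensate from the carrier liquid, which is propylene glycol and vegetable glycerine. EC cells received the same dilution of condensate from another liquid for the same time. That liquid also contained propylene glycol and glycerol, with 18 mg/mL nicotine and Virginia tobacco flavor. Each condition had 3 libraries of poly(A) RNA, numbered 2, 3 and 4 in the sample titles, and that number is used here as the batch. All 9 libraries came from the same line, which stands for neither the range of airway cell types nor different donors.

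PGE2 begins with arachidonic acid, which cytosolic phospholipase A2 cuts from membrane phospholipids. The cyclooxygenases turn it into prostaglandin H2, a PGE synthase turns that into PGE2, and PGE2 signals through EP receptors, of which EP2 and EP4 raise cyclic AMP. In airway epithelium PGE2 is known as a local mediator with bronchodilating and inflammatory roles, and it is switched off by oxidation of its 15-hydroxyl group to a ketone, followed by reduction of a neighbouring double bond.

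The promoters of 3 of the genes are shown because the results turn on them. These are PTGES and PTGES2, whose treated libraries all lay on the same side of the control libraries, and PTGS2, the inducible cyclooxygenase, so the choice was made after the values were seen. Each line holds the 250 bases before the RefSeq transcription start on GRCh38.p14, 5′ to 3′ on the gene's own strand, which is the minus strand of the genome for all 3. The windows are chr9:129753043-129753292 for PTGES, chr9:128128441-128128690 for PTGES2 and chr1:186680424-186680673 for PTGS2. Capitals mark matches on either strand to 8 motifs. The EGR1 motif was GCGNGGGCG and the NRF2 motif TGACNNNGC. The GC box was searched as GGGCGG and the TATA box as TATAAA. The core of the aryl hydrocarbon receptor site was GCGTG and that of the cyclic AMP response element was TGACG. The NF-kB motif began with GGGA and, after 4 bases of any kind, ended with CC. The AP-1 motif was TGA, any base and then TCA.
PTGES: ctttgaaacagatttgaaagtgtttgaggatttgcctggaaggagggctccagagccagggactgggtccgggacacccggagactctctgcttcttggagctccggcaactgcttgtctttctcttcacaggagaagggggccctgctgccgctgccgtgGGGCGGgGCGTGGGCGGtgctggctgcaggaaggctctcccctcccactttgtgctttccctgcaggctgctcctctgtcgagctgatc
PTGES2: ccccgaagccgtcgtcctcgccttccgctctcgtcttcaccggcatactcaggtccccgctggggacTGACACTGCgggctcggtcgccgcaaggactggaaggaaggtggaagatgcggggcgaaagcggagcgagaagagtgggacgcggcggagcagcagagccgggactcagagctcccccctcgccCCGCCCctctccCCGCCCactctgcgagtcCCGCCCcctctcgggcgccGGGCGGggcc
PTGS2: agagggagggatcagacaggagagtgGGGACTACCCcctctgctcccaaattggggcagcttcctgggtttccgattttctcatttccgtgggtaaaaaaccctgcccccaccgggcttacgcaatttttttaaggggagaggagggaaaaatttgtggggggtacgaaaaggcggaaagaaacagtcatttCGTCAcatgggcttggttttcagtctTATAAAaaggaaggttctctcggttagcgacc

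The PTGES window held an EGR1 match from position −82 to −74 before the start, which overlaps both an aryl hydrocarbon receptor core at −82 to −78 and a GC box at −78 to −73, and another GC box at −89 to −84. It held no TATA box match. The PTGS2 window held a TATA box at −32 to −27, a cyclic AMP response element core at −58 to −54 and an NF-kB match at −224 to −215. PTGES2 had 4 GC boxes within the last 59 bases and an NRF2 match at −183 to −175. Of 35116 RefSeq promoter windows of the same length, 8.41% held the EGR1 letters, 42.6% the GC box, 32.2% the aryl hydrocarbon receptor core, 10.9% the NRF2 letters, 21.2% the cyclic AMP response element core, 22.6% the NF-kB letters, 6.57% the AP-1 letters and 10.7% the TATA box. Among the 10 genes these were found in 2, 6, 4, 3, 4, 3, 0 and 2. These are matches of letters and were not tested as binding sites.

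Total counts per library ran from 16168260 to 24917838, and every control library, at 17882770 or less, was shallower than every treated library, at 18427225 or more. Levels are given as CPM, the count of a gene scaled by the total and, through the TMM factor, the composition of its library, and LFC is the log2 fold change, estimated for every gene in 1 edgeR fit that included condition and batch. A gene was taken to pass the threshold when its Benjamini-Hochberg adjusted p over the 16030 genes was under 0.05. The epithelial keratins KRT8 and KRT18 were abundant, at a mean of 1058 and 546 CPM in control cells, but EPCAM and CDH1 were near 1 CPM and the basal cell markers KRT5 and TP63 had at most 5 counts in any library. The 4 markers of secretory and ciliated cells had at most 12 counts. Per length of all annotated exons, the mesenchymal genes FN1 and VIM, at 278 and 206 CPM per kb in control, were above KRT18 and KRT8, at 178 and 154. In CPM, VIM and KRT8 were about equal in control, at 1068 and 1058. The annotation names 67 pseudogenes of KRT18 and 51 of KRT8. Reads that map to several places were not counted, so the keratin levels are lower bounds. The 4 leukocyte markers had at most 7 counts in any library.

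Compared per length, as CPM per kb of exon, the 10 genes spanned more than 3 orders of magnitude and kept the same order of means in all 3 conditions. The length counts every annotated exon of a gene, 6084 bases for PTGES2 and 1891 for PTGES. The transcripts present may be shorter, which would raise the level per length, so order and shares depend on this choice. PTGES3 was highest, with a mean of 150.8 ± 8.03 CPM per kb in control cells (SD, n = 3), followed by PTGR1 with 30.9 ± 1.69, PTGES2 with 10.1 ± 0.71, PTGER4 with 3.30 ± 0.11 and PTGER2 with 2.32 ± 0.36. PTGES, PLA2G4A, PTGS2 and PTGS1 followed with 0.69, 0.55, 0.39 and 0.35, and HPGD was lowest with 0.053. The ranges of the neighbours from PTGES3 down to PTGER2 were separate in every condition. In control cells the 3 libraries of PTGES, from 0.327 to 1.04 CPM per kb, overlapped those of PLA2G4A, PTGS2 and PTGS1. In treated cells PTGES lay above all 3 of them, with 1.36 to 2.14 in PG/VG and 1.23 to 1.89 in EC, while the highest value of any of the 3 was 0.852 in PG/VG and 1.03 in EC.

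**Figure D1:**
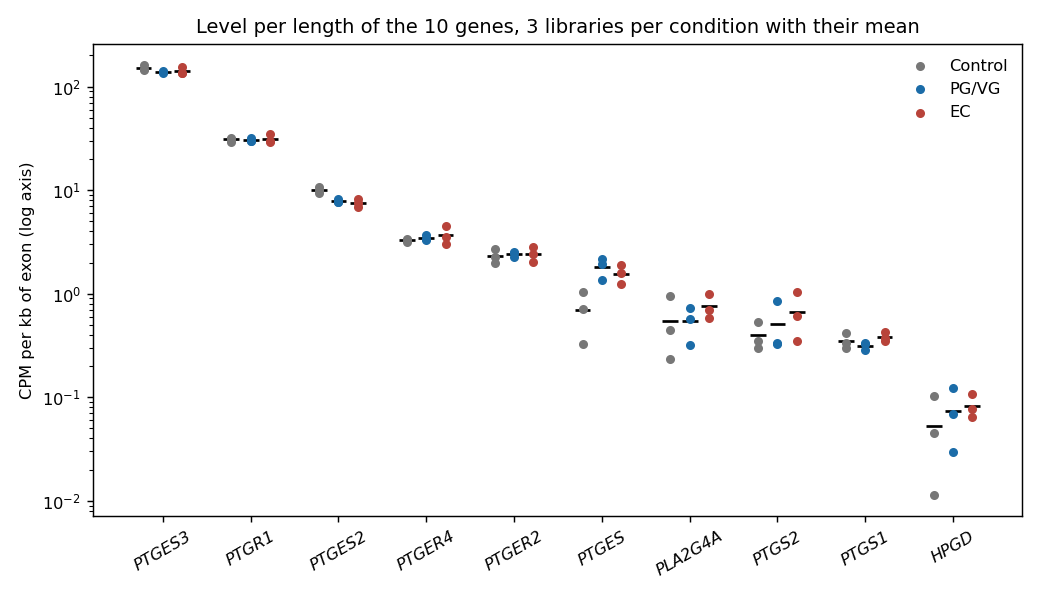
Level per length of the 10 genes. The vertical axis is CPM per kb of exon on a log scale, each point is 1 library, colors are the 3 conditions and black bars are the means of 3 libraries. PTGES is the gene whose control points overlap those of PLA2G4A, PTGS2 and PTGS1 and whose treated points lie above them.

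PLA2G4A (ENSG00000116711, chr1:186828949-186988981, plus strand, GENCODE 44 on GRCh38 as for all coordinates of genes below) encodes cytosolic phospholipase A2, the enzyme that releases arachidonic acid. Its level was 1.27, 0.681 and 2.76 CPM in control replicates 2, 3 and 4, 1.64, 0.930 and 2.10 in PG/VG and 1.67, 2.00 and 2.88 in EC. Replicate 4 was the highest of its condition each time, and the conditions overlapped. Against control, the LFC was 0.53 ± 0.28 (SE) for EC and 0.035 ± 0.29 for PG/VG, and neither passed the threshold. The counts behind these values were 11 to 58 per library, and control replicate 3, with 11 counts, has an exact Poisson 95% interval of 5.49 to 19.7 counts, which covers counting error only.

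The cyclooxygenases PTGS1 (ENSG00000095303, chr9:122370530-122395703, plus strand) and PTGS2 (ENSG00000073756, chr1:186671791-186680922, minus strand) convert arachidonic acid to prostaglandin H2. PTGS1 is the constitutive form and PTGS2 the form induced by cytokines and growth factors. PTGS1 stood at 1.72, 1.92 and 2.42 CPM in control, 1.88, 1.64 and 1.93 in PG/VG and 2.46, 2.04 and 2.18 in EC. The EC libraries were all above the PG/VG libraries, as for 4.54% of all genes tested, by an LFC of 0.30 ± 0.23. They overlapped the control libraries, from which the LFC was 0.14 ± 0.23 in EC and −0.15 ± 0.24 in PG/VG. None of these passed the threshold.

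PTGS2 stood at 1.65, 1.92 and 2.93 CPM in control, 1.84, 1.81 and 4.67 in PG/VG and 3.33, 1.92 and 5.65 in EC. Replicate 4 was again the highest of each condition, EC replicate 3 had the level of its control at this precision, and the conditions overlapped. The LFC of 0.71 ± 0.23 in EC vs. control passed the threshold, and the differences within batches 2, 3 and 4 were 1.01, −0.0034 and 0.95. In PG/VG vs. control the LFC was 0.31 ± 0.24 and did not pass, with 0.16, −0.089 and 0.68 within the batches. The EC call was lost when control replicate 2 or 4, PG/VG replicate 4 or EC replicate 2 or 4 was left out. The LFC was between 0.49 and 0.93 over the 9 fits that leave out 1 library. The call was not made by DESeq2 with the batch term, but was made by the authors' route of ComBat-Seq and DESeq2. An antisense RNA, PACERR, overlaps 3.99% of the exon length of PTGS2, and the strand setting of the counting is not given in the sources used here. Reads assigned to several genes were not counted, so reads in that stretch were either dropped or assigned by strand.

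The cyclooxygenases were present at similar levels per length. PTGS2 made up 52.6% ± 3.04 (SD, n = 3) of the summed level per length of the pair in control cells, 58.8% ± 11.4 in PG/VG and 60.6% ± 11.8 in EC. The ranges overlapped, from 50.4% to 56.1% in control and from 49.7% to 73.2% in EC.

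Of the 3 PGE synthases, PTGES (ENSG00000148344, chr9:129738331-129753042, minus strand) encodes microsomal PGE synthase-1, the inducible glutathione-dependent enzyme that is usually paired with PTGS2. It had 21, 10 and 35 counts in control replicates 2, 3 and 4, 63, 74 and 85 in PG/VG and 90, 70 and 47 in EC. As levels these were 1.33, 0.619 and 1.97 CPM in control, 2.58, 4.05 and 3.65 in PG/VG and 3.57, 2.98 and 2.33 in EC. Every treated library was above every control library. Taken 1 comparison at a time, this held for 7.79% of all genes tested in PG/VG and 9.83% in EC. The order of the replicates differed between conditions, since replicate 4 was the highest of the controls and the lowest of the EC libraries.

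The LFC of PTGES was 1.36 ± 0.31 in PG/VG vs. control, a fold of 2.57, and 1.18 ± 0.31 in EC vs. control, a fold of 2.27. Both passed the threshold, and both rest on the same 3 control libraries. Within batches 2, 3 and 4 the difference was 0.95, 2.71 and 0.89 in PG/VG and 1.42, 2.27 and 0.24 in EC. Batch 3, where the control had 10 counts (exact Poisson 95% interval 4.80 to 18.4), gave the largest difference in both. Ranked over the 16030 genes, the LFC of PTGES was the 54th from the top in PG/VG vs. control and the 213th in EC vs. control, which describes the value that was known when the gene was chosen.

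The call of PTGES depended on single libraries. In EC vs. control it was lost without control replicate 2 or 3 or EC replicate 2 or 3, with an LFC between 0.77 and 1.65, and in PG/VG vs. control without control replicate 2 or 3 or PG/VG replicate 3 or 4, with an LFC between 0.95 and 1.85. The direction was the same in all 18 of these fits. The control libraries, where PTGES was low, were also the shallowest, and the part of depth in the difference was not tested. In bulk RNA a change in the level per cell and a change in the share of cells that express the gene cannot be told apart.

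PTGES2 (ENSG00000148334, chr9:128120693-128128462, minus strand) encodes microsomal PGE synthase-2. Its level was 56.9, 61.4 and 65.5 CPM in control, 46.4, 50.3 and 46.7 in PG/VG and 46.2, 41.9 and 50.5 in EC. Every treated library was below every control library, the opposite side from PTGES. Taken 1 comparison at a time, this held for 6.37% of all genes tested in PG/VG and 7.42% in EC. Against control, the LFC was −0.36 ± 0.081 for PG/VG and −0.41 ± 0.081 for EC, and both passed the threshold. The differences within the batches ran from −0.49 to −0.29 in PG/VG and from −0.55 to −0.30 in EC. In EC the call held in all 9 fits that leave out 1 library, with an LFC between −0.47 and −0.32, and in PG/VG it was lost without control replicate 3 or 4 or PG/VG replicate 2 or 4, with an LFC between −0.43 and −0.29.

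PTGES3 (ENSG00000110958, chr12:56663341-56688408, minus strand), which encodes p23, is a cytosolic PGE synthase and a co-chaperone of Hsp90. It was by far the most abundant of the synthases, with 544, 494 and 500.3 CPM in control, 470.0, 457 and 476 in PG/VG and 528, 462 and 462 in EC. The PG/VG libraries were all below the control libraries, as for 6.37% of all genes tested, with an LFC of −0.13 ± 0.066. The EC libraries overlapped the control libraries, with −0.084 ± 0.066. Neither passed the threshold in edgeR, and with ComBat-Seq and DESeq2 the PG/VG difference did. The annotation names 5 pseudogenes of PTGES3, and reads that map to several places were not counted, so its level is a lower bound of what was sequenced.

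PTGES remained the smallest part of the synthase transcripts in every condition. On the scale of CPM per kb, PTGES was 0.427% ± 0.22 of the summed synthase level in control cells, 1.23% ± 0.28 in PG/VG and 1.03% ± 0.16 in EC (SD, n = 3). PTGES2 was 6.25% ± 0.67, 5.34% ± 0.33 and 5.03% ± 0.59 in the same order, and PTGES3 was 93.3%, 93.4% and 93.9%. These shares depend on the annotated exon length of each gene, which was largest for PTGES2 at 6084 bases.

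**Figure D2:**
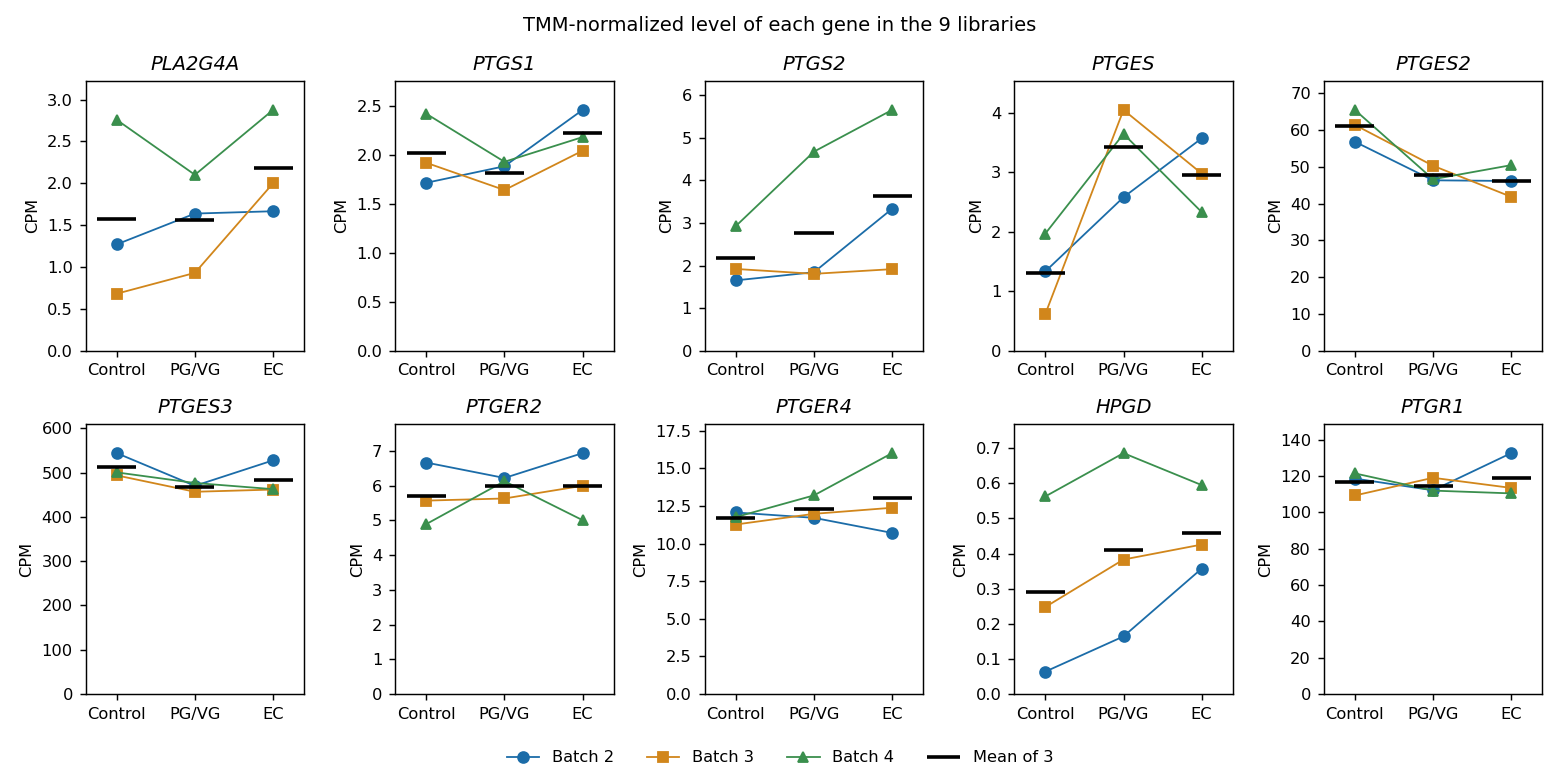
Level of each gene in the 9 libraries. Vertical axes are TMM-normalized CPM from 0, points are libraries with their batch as color and shape, lines join libraries of the same batch and black bars are means of 3. All PTGES points of PG/VG and EC lie above the control points, all PTGES2 points lie below them, and the batch 4 points of PLA2G4A, PTGS2 and HPGD are the highest of each condition.

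The receptors PTGER2 (ENSG00000125384, chr14:52314305-52328598, plus strand) and PTGER4 (ENSG00000171522, chr5:40679915-40693735, plus strand) encode EP2 and EP4, both coupled to the stimulatory G protein. PTGER2 stood at 6.67, 5.57 and 4.90 CPM in control, 6.23, 5.63 and 6.13 in PG/VG and 6.94, 6.001 and 5.01 in EC. PTGER4 stood at 12.1, 11.3 and 11.8 CPM in control, 11.7, 11.98 and 13.2 in PG/VG and 10.7, 12.4 and 16.02 in EC. The conditions overlapped for both genes, although EC replicate 4 had the highest PTGER4 level of all 9 libraries. The LFC was 0.071 ± 0.15 and 0.080 ± 0.15 for PTGER2 and 0.14 ± 0.12 and 0.071 ± 0.12 for PTGER4, in EC and PG/VG vs. control, and none passed the threshold. Of the other EP receptors, PTGER1 had at most 4 counts and PTGER3 at most 1 count in any library, so EP4 was 58.2% ± 3.21 and EP2 40.6% ± 3.54 of the summed EP receptor level per length in control cells.

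HPGD and PTGR1 break PGE2 down. HPGD (ENSG00000164120, chr4:174490175-174523154, minus strand) encodes 15-hydroxyprostaglandin dehydrogenase, which carries out the inactivating oxidation. It had 1, 4 and 10 counts in control, 4, 7 and 16 in PG/VG and 9, 10 and 12 in EC, so only 4 of its 9 libraries reached the minimum of 10 counts. The 95% Poisson interval of the control library with 1 count was 0.025 to 5.57 counts. Against control, the LFC was 0.72 ± 0.52 for EC and 0.48 ± 0.53 for PG/VG, the conditions overlapped, and neither passed the threshold.

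PTGR1 (ENSG00000106853, chr9:111549722-111599893, minus strand) encodes the reductase that acts on 15-keto prostaglandins and also inactivates leukotriene B4. Its level was 119, 109 and 121 CPM in control, 112, 119 and 112 in PG/VG and 133, 113 and 110 in EC. The conditions overlapped. Against control, the LFC was 0.027 ± 0.076 for EC and −0.026 ± 0.076 for PG/VG, and the latter turned positive when libraries were scaled by their size alone. The small standard error comes with 1765 to 3343 counts per library.

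Of the 10 genes, 3 passed the threshold in EC vs. control, PTGES and PTGS2 upwards and PTGES2 downwards, where 13.5% of all genes tested passed. In PG/VG vs. control 2 passed, PTGES upwards and PTGES2 downwards, where 4.54% of all genes passed. Since the genes were selected with these comparisons known, nothing is read from these shares. With 1 library left out, between 1162 and 2172 genes passed in EC and between 192 and 1084 in PG/VG, where all 9 libraries gave 2157 and 727, with the fewest without control replicate 3 and without PG/VG replicate 2. The median LFC of the 10 genes was 0.14 in EC and 0.053 in PG/VG, beside 0.0078 and 0.013 over all genes tested. In EC vs. PG/VG none of the 10 passed in edgeR, in DESeq2 or in ComBat-Seq with DESeq2, where 0.855% of all genes passed in edgeR. None of the 10 had an unadjusted p under 0.05 in edgeR, beside 2064 of all 16030 genes tested. The LFC between EC and PG/VG was 0.50 ± 0.27 for PLA2G4A, 0.41 ± 0.21 for PTGS2 and −0.18 ± 0.26 for PTGES, and within ±0.30 for the others.

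**Figure D3:**
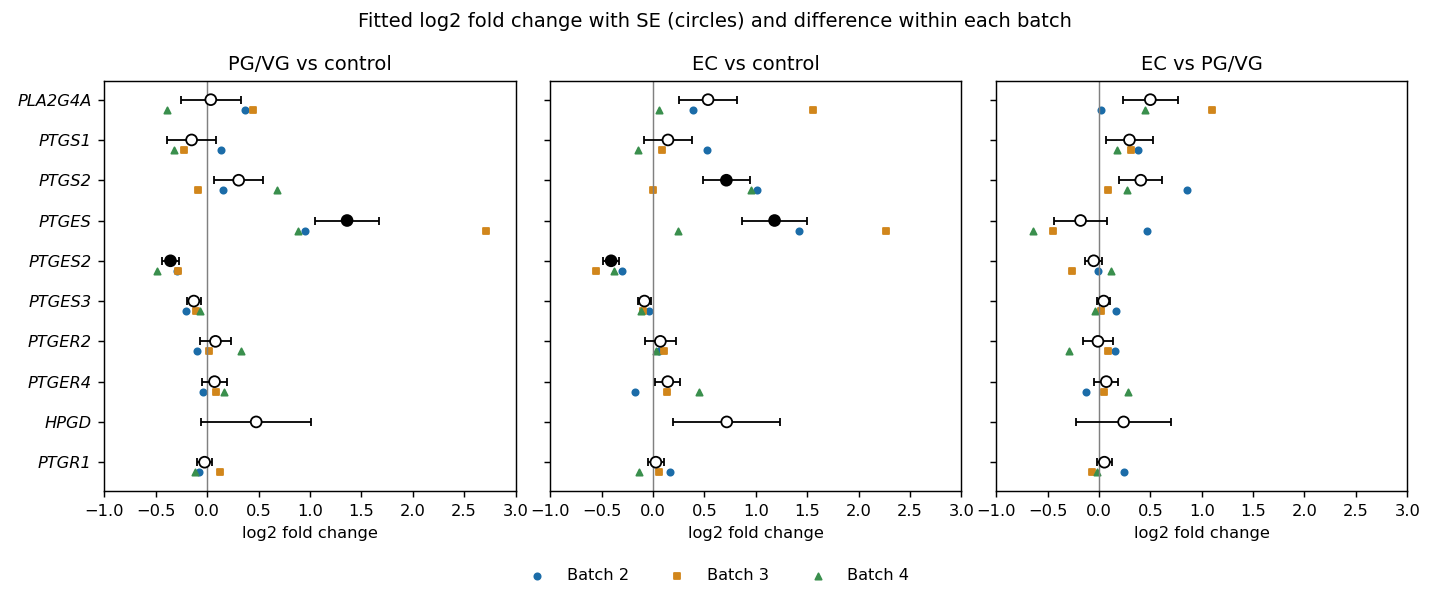
LFC of the 10 genes in the 3 treatment comparisons. The horizontal axis is the log2 fold change, circles are the fitted values with their SE, filled where the gene passed the threshold over all genes, and the small points are the differences within batches 2, 3 and 4, left out for HPGD, which had 1 count in a control library. PTGES lies at 1.36 and 1.18 against control with batch 3 farthest to the right, and PTGES2 at −0.36 and −0.41 with all batches left of 0.

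Batch 4 was compared with the mean of batches 2 and 3 in the same fit, a contrast that was not used to choose the genes. A batch here is 1 number shared by 3 libraries, so the test measures these libraries. PLA2G4A rose by an LFC of 0.91 ± 0.23 (adjusted p = 0.00284) and PTGS2 by 1.10 ± 0.18 (adjusted p = 3.43e-05), and both held in all 9 fits that leave out 1 library. HPGD had 10, 16 and 12 counts in the batch 4 libraries and reached 10 counts in only 1 library of the other batches, so it entered the fit mainly through batch 4, and its LFC of 1.19 ± 0.41 is given with no test. In each of the 3 conditions the batch 4 library was the highest for these 3 genes. PTGES and PTGES2 did not pass, with 0.11 ± 0.25 (adjusted p = 0.756) and 0.099 ± 0.070 (adjusted p = 0.278). In this comparison 40.6% of all genes tested passed, so calls of this number are not particular to the pathway.

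Likeness of pattern was measured as the root mean square difference of log2 CPM over the 9 libraries, after each gene was centered within each batch. Among 13672 genes with a mean of at least 1 CPM, the nearest to PTGES were CHRM4, SLC44A3, RNF150, RAB11FIP4 and ST6GALNAC2, at 0.264 to 0.326. Their LFC was 0.95 to 1.51 in EC and 0.76 to 1.36 in PG/VG vs. control, which follows from picking them for likeness to PTGES in the same libraries. The nearest to PTGS2 were SLC16A10, RNF32-DT, HID1, ENSG00000289858 and GLCCI1, at 0.0953 to 0.122, and the nearest to PTGR1 were SLC27A1, HHEX, TMEM25, TXN2 and CAPN1, at 0.0185 to 0.031. Within the pathway PTGES was the gene farthest from the rest, at 0.529 from HPGD to 0.905 from PTGES2, whereas PTGES3 and PTGR1 were closest, at 0.0753. The distance includes the difference between conditions that was known when PTGES was chosen, so its place restates that difference.

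A wider set of 69 genes in 7 lists covered the rest of eicosanoid metabolism, and 48 of them could be tested. These and the later lists were, like the 10 genes, chosen with earlier results of these data known. Their adjusted p values are therefore given as a description. In EC vs. control 9 rose and 2 fell, which is 11 of 48 beside 13.5% of all genes, and the median LFC was 0.11 beside 0.0078. In PG/VG vs. control 4 rose and none fell, beside 4.54% of all genes, with a median of 0.067 beside 0.013. The 9 include CYP4F11, which reached 10 counts only in treated libraries. In EC vs. PG/VG none passed in edgeR or in DESeq2 with the batch term. In edgeR 11 of the 48 had an unadjusted p under 0.05, beside 2064 of all 16030 genes tested. With ComBat-Seq and DESeq2 4 passed, beside 658 of 16100 genes. By list, those past the threshold in EC vs. control were 1 of 9 phospholipase genes, 5 of 10 genes of arachidonate activation and reacylation and 1 of 7 other terminal synthases and ketoreductases. They were also 1 of 4 other prostanoid receptor genes, 1 of 8 genes of the lipoxygenase branch and none of 5 genes of transport and breakdown. In a list of cytochrome P450 and epoxide hydrolase genes they were 2 of 5, EPHX1 and CYP4F11, of which CYP4F11 passed the count filter only through treated libraries.

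Desaturases that make arachidonic acid were among the genes that rose in both. FADS1, the delta-5 desaturase, rose by an LFC of 0.41 ± 0.079 in EC (adjusted p = 0.00132) and 0.41 ± 0.079 in PG/VG (adjusted p = 0.00351), and was higher in 3 of 3 batches in each. FADS2, the delta-6 desaturase, rose by 0.66 ± 0.080 (adjusted p = 1.07e-05) and 0.41 ± 0.080 (adjusted p = 0.00437), also in 3 of 3 batches. The genes lie on opposite strands of chromosome 11, and 5.57% of the exon length of FADS1 overlaps FADS2 or MIR1908. The libraries of control and EC overlapped for both genes. Both PG/VG calls were lost without PG/VG replicate 2, with an adjusted p of 0.0582 and 0.0584.

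On the release and reacylation side, ACSL4, which loads arachidonic acid onto coenzyme A, fell by 0.32 on the log2 scale in EC (SE 0.069, adjusted p = 0.0033), and MBOAT2, a lysophospholipid acyltransferase, fell by 0.24 (SE 0.072, adjusted p = 0.029). LPCAT2, which reacylates lysophospholipids, rose by 0.31 ± 0.088 (adjusted p = 0.0229) and the phospholipase PLAAT3 by 0.24 ± 0.077 (adjusted p = 0.04). Each of the 4 moved the same way in 3 of 3 batches. In PG/VG vs. control none of the 4 passed, with an LFC of −0.23 ± 0.069 for ACSL4 (adjusted p = 0.0522). It was −0.15 ± 0.072 for MBOAT2, 0.11 ± 0.089 for LPCAT2 and 0.16 ± 0.078 for PLAAT3. Without control replicate 2 or EC replicate 2 the calls of MBOAT2, LPCAT2 and PLAAT3 were all lost. Those of LPCAT2 and PLAAT3 were also lost without control replicate 3 or EC replicate 3, that of MBOAT2 without control replicate 4 or EC replicate 4, and that of PLAAT3 without PG/VG replicate 4 or EC replicate 4, with an adjusted p of up to 0.138 for LPCAT2, 0.141 for MBOAT2 and 0.33 for PLAAT3. The LFC of PLAAT3 was 0.16 without control replicate 2 or EC replicate 2, and its call was also lost with RLE normalization and in DESeq2 with the batch term.

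Among genes that handle prostanoids and their relatives, AKR1C3, an aldo-keto reductase that turns prostaglandin D2 and H2 into F-type prostaglandins, rose in EC from 0.593 ± 0.27 to 1.47 ± 0.16 CPM (SD, n = 3), an LFC of 1.31 ± 0.35 (adjusted p = 0.016). It belongs to a family of near-identical genes whose reads may be split or uncounted, so its level is uncertain, and its call was lost without control replicate 2 or 3 or EC replicate 2 or 3 (adjusted p of up to 0.1). CYP4F11, a fatty acid omega-hydroxylase, stood at 0.266 ± 0.20 CPM in control and 1.07 ± 0.26 in EC. It had 2 to 8 counts in control, 12 to 19 in PG/VG and 17 to 34 in EC, so it was tested only through the treated libraries, and its LFC of 2.02 ± 0.48 is given with no test. It was not called by DESeq2 with the batch term. MGST2, which can make leukotriene C4, rose by 0.47 ± 0.10 (adjusted p = 0.00379). All 3 were higher in 3 of 3 batches.

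EPHX1, the microsomal epoxide hydrolase, rose in both treatments, by 0.56 ± 0.081 in EC (adjusted p = 8.3e-05) and 0.38 ± 0.082 in PG/VG (adjusted p = 0.00906). PTGFRN, a membrane protein that binds the prostaglandin F receptor, rose by 0.27 ± 0.067 (adjusted p = 0.00916) and 0.26 ± 0.067 (adjusted p = 0.028). Both genes were higher in 3 of 3 batches in both comparisons. The EC call of PTGFRN was lost without control replicate 2 or 3 or EC replicate 3 or 4 (adjusted p of up to 0.0759). In PG/VG that of PTGFRN was lost without any of the controls or PG/VG replicate 2 or 4 (up to 0.225) and that of EPHX1 without control replicate 2 or PG/VG replicate 2 or 4 (up to 0.115). The other terminal synthases PTGDS and HPGDS had at most 1 count in any library.

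A list of 18 regulators of PTGES and PTGS2, all of them tested, held 5 genes past the threshold in EC vs. control (13.5% of all genes, median LFC of the list 0.03) and 5 in PG/VG vs. control (4.54% of all genes, median −0.061). The NF-kB subunit gene NFKB2 rose in both, by 0.45 ± 0.078 (adjusted p = 0.000453) and 0.38 ± 0.078 (adjusted p = 0.00576). RELB, its partner, rose in EC by 0.55 ± 0.096 (adjusted p = 0.000483). So did IL1R1, the interleukin-1 receptor, by 0.52 ± 0.17 (adjusted p = 0.0454) and the transcription factor gene CEBPD by 0.51 ± 0.12 (adjusted p = 0.00523). In PG/VG vs. control these 3 did not pass, with an LFC of 0.33 ± 0.097 for RELB (adjusted p = 0.0508), 0.43 ± 0.17 for IL1R1 (adjusted p = 0.157) and −0.077 ± 0.12 for CEBPD. Neither RELB nor IL1R1 passed in EC vs. PG/VG. JUN, an AP-1 subunit, fell in both, by 0.26 (SE 0.068, adjusted p = 0.0133) and 0.28 (SE 0.068, adjusted p = 0.0198). In PG/VG the cytokine genes IL1A and IL1B fell by 0.55 (SE 0.12, adjusted p = 0.0115) and 0.47 (SE 0.10, adjusted p = 0.00856) and CEBPB by 0.31 (SE 0.074, adjusted p = 0.0171). In EC vs. control the LFC of IL1A, IL1B and CEBPB was −0.03 ± 0.12, −0.13 ± 0.099 and −0.16 ± 0.073, and none passed.

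Each regulator that passed moved the same way in 3 of 3 batches of that comparison. EGR1, the factor best known for switching on PTGES, spread widely within control, from 17.1 to 72.1 CPM, and its LFC of 0.11 ± 0.44 in EC did not pass (adjusted p = 0.912). The calls of CEBPD, NFKB2 and RELB in EC held with each of the 9 libraries left out. That of IL1R1 was lost without control replicate 2 or 3, PG/VG replicate 4 or EC replicate 2 or 3 (adjusted p of up to 0.36, with an LFC between 0.27 and 0.72). It was also lost in DESeq2 with the batch term. That of JUN in EC was lost without control replicate 3 or EC replicate 3 (up to 0.0959). In PG/VG calls were lost for JUN without control replicate 3 or 4 or PG/VG replicate 3 or 4, for CEBPB without control replicate 3 or PG/VG replicate 2 or 4, for IL1A without control replicate 2 or PG/VG replicate 2, for IL1B without control replicate 4 or PG/VG replicate 2 and for NFKB2 without PG/VG replicate 2, with adjusted p between 0.058 and 0.166.

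Downstream of EP2 and EP4, a list of 20 genes of cyclic AMP signaling, all tested, held 5 that rose in EC and 3 that rose in PG/VG, and none that fell, beside the same shares of all genes. Its median LFC was 0.071 in EC and 0.13 in PG/VG. PDE4B, a phosphodiesterase that breaks down cyclic AMP, rose from 0.978 ± 0.26 CPM in control to 2.27 ± 0.52 in EC and 2.01 ± 0.23 in PG/VG (SD, n = 3), an LFC of 1.22 ± 0.28 (adjusted p = 0.00579) and 1.06 ± 0.29 (adjusted p = 0.0368). The adenylyl cyclase gene ADCY6 rose by 0.33 ± 0.071 (adjusted p = 0.00308) and 0.29 ± 0.071 (adjusted p = 0.0194). In EC the nuclear receptor genes NR4A2 and NR4A3, which respond early to cyclic AMP among other stimuli, rose by 1.04 ± 0.33 (adjusted p = 0.0376) and 1.51 ± 0.37 (adjusted p = 0.00879). AREG, a growth factor of the EGF family, rose by 0.54 ± 0.13 (adjusted p = 0.00824). In PG/VG vs. control the LFC of NR4A2, NR4A3 and AREG was 0.72 ± 0.34, 0.93 ± 0.39 and 0.16 ± 0.14, and none passed. None of the 20 genes passed in EC vs. PG/VG. RAPGEF3, a cyclic AMP-activated exchange factor, rose in PG/VG by 0.78 ± 0.22 (adjusted p = 0.0424). In EC its LFC was 0.22 ± 0.23 and did not pass.

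All of these were higher in 3 of 3 batches, and in EC the calls of PDE4B and ADCY6 held with each library left out. NR4A3 and AREG lost theirs without control replicate 4 or EC replicate 4 (adjusted p of up to 0.183 and 0.243), where the LFC was as low as 0.95 for NR4A3 and 0.27 for AREG. NR4A2 lost its call without any of the control or EC libraries (up to 0.251), without the count filter, in DESeq2 and in ComBat-Seq with DESeq2. In PG/VG ADCY6 lost its call without any of the control or PG/VG libraries (up to 0.141), PDE4B without any control or PG/VG replicate 2 or 4 (up to 0.21) and RAPGEF3 without any control, PG/VG replicate 2 or 3 or EC replicate 4 (up to 0.281). In PG/VG neither PDE4B nor RAPGEF3 was called by DESeq2 with the batch term, and PDE4B was not called by ComBat-Seq with DESeq2 either.

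**Figure D4:**
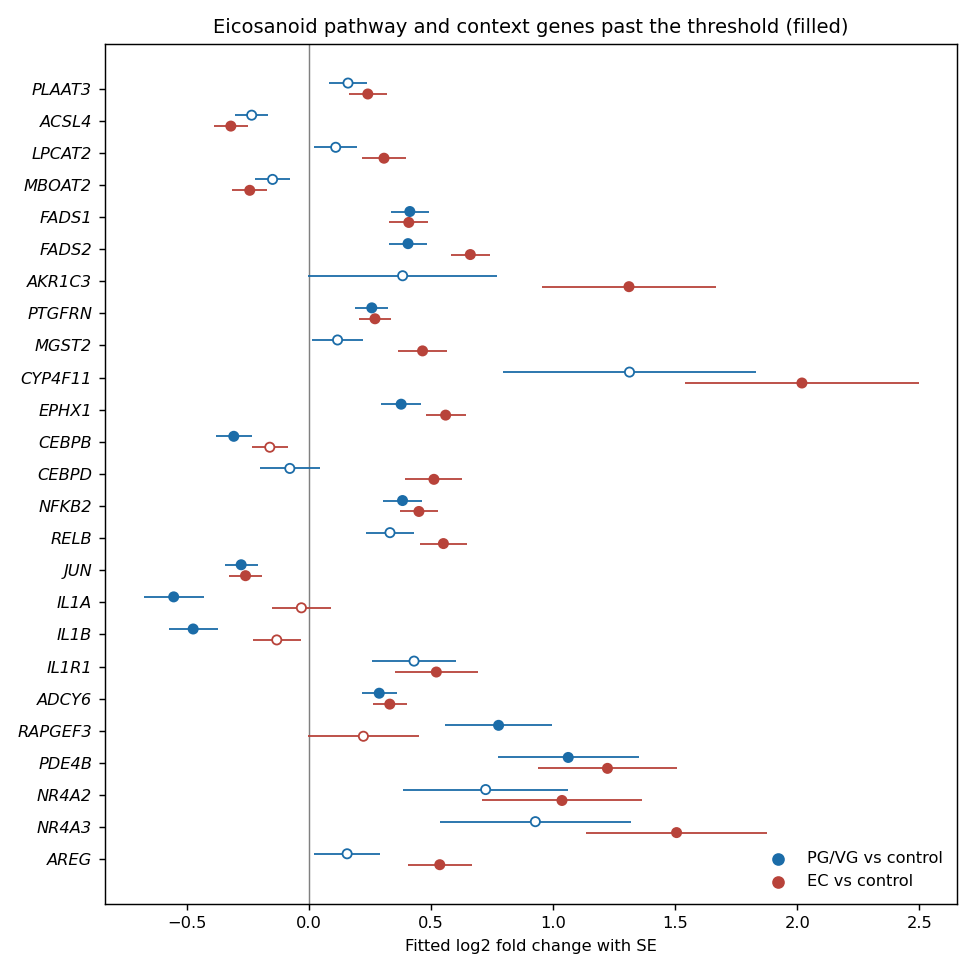
The 25 genes of the wider lists that passed the threshold in EC or PG/VG vs. control. The horizontal axis is the fitted log2 fold change, bars are the SE, colors are the 2 comparisons, which share the control libraries, and filled points passed the threshold. CYP4F11 in EC, which passed the count filter only through treated libraries, is farthest to the right at 2.02 and IL1A in PG/VG farthest to the left at −0.55.

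Of 6 exposure markers outside the pathway, 4 rose in EC, beside 13.5% of all genes tested that passed. The study had already reported CYP1A1 and CYP1B1 among the genes most raised by EC, so their values here are a description. CYP1A1, a target of the aryl hydrocarbon receptor, was 1.73 ± 0.89 CPM in control, 1.97 ± 0.60 in PG/VG and 10.8 ± 1.23 in EC (SD, n = 3), an LFC of 2.65 ± 0.24 in EC vs. control (adjusted p = 2.06e-06), and CYP1B1 rose by 1.95 ± 0.096 (adjusted p = 3.17e-09). The oxidative stress genes NQO1 and HMOX1 rose by 0.53 ± 0.068 (adjusted p = 2.13e-05) and 0.53 ± 0.094 (adjusted p = 0.000617), and all 4 were higher in 3 of 3 batches. Their LFC between EC and PG/VG was 0.48 to 2.47, all past the threshold. For PTGES the LFC between EC and PG/VG was −0.18 ± 0.26 and did not pass. Its PG/VG and EC libraries overlapped, at 2.58 to 4.05 and 2.33 to 3.57 CPM, but so did those of NQO1, at 264.9 to 415.0 and 337.9 to 640.6 CPM. In PG/VG 1 of the 6 passed, beside 4.54% of all genes tested. This was CYP1B1, with 0.39 ± 0.093 (adjusted p = 0.0236), a call lost without any control, PG/VG replicate 2 or 4 or EC replicate 2 (up to 0.164). Its LFC was 0.23 without PG/VG replicate 4. Several of these genes share exon sequence with a neighbour, at 19.4% of the exon length of NQO1, 15.9% of RAPGEF3, 13% of CYP1B1 and 12.6% of CEBPB, where reads were either dropped or assigned by strand.

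Markers of cell type also moved between the conditions. Of the 7 epithelial markers, KRT8 and KRT18 fell in EC vs. control, by 0.25 and 0.46 on the log2 scale (adjusted p = 0.0177 and 0.000125), while EPCAM, CDH1 and KRT19 had an LFC of 0.57 ± 0.30, 0.36 ± 0.39 and 0.18 ± 0.11 and did not pass. KRT5 and TP63 were too low to test. The summed level of the list, which is mostly KRT8 and KRT18, was 1266 to 1807 CPM in control, 1237 to 1749.5 in PG/VG and 1072 to 1497 in EC. Of the 5 mesenchymal markers, CDH2 and FN1 fell in EC by 0.25 and 0.58 (adjusted p = 0.0168 and 0.000113). VIM, COL1A1 and ACTA2 had an LFC of −0.22 ± 0.076, 0.17 ± 0.071 and 0.15 ± 0.11 and did not pass. Their summed level, mostly FN1, was 5043 to 6983 CPM in control, 4649 to 6684 in PG/VG and 3554 to 5415 in EC. In PG/VG vs. control VIM fell by 0.27 (adjusted p = 0.0441) and COL1A1 rose by 0.26 (adjusted p = 0.0394). The 3 endothelial markers summed to at most 7.77 CPM and the 4 secretory and ciliated markers to at most 1.04 CPM in any library, and the leukocyte marker CD3E had no count. The part of these differences in the values of the 10 genes was not tested.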

How the data were processed

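Poly(A) RNA of 9 BEAS-2B libraries was sequenced. The authors used fastp for trimming, STAR for alignment to GRCh38.p12 and featureCounts of Subread 2.0.4 for counting over exons. Reads with several mapping places or several overlapping genes were not counted, and the strand setting is not given in the sources used here. The deposited table holds raw counts for 63187 genes in 9 columns, all of them used, with no adjustment for batch. The 10 genes and all lists were chosen with earlier results of these data known. Named were the 10 genes, every gene of 9 lists that passed the threshold in a treatment comparison, 6 exposure markers and the 5 genes nearest in pattern to PTGES, PTGS2 and PTGR1.

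A gene was tested if 3 or more libraries had 10 or more of its counts. Tests ran in edgeR 4.0.16 (R 4.3.3), using TMM normalization, robust dispersions and 1 quasi-likelihood fit of all 9 libraries with condition and batch, and adjusted by Benjamini-Hochberg over all genes tested, with a threshold of 0.05. This replaced the ComBat-Seq and DESeq2 route of the authors, which was run as an alternative (DESeq2 1.42.0, sva 3.50.0). The SE is the size of the LFC over the root of its F value. Means carry the SD of 3 replicates, described as biological by the study. The number of a library pairs the conditions, since deviations from the condition mean correlated at 0.334 to 0.707 in 9 pairs with the same number and at −0.539 to 0.426 in 18 pairs with different numbers, so it was kept as the replicate block. The chi-square per gene between replicates of a condition was 3.66 to 52.8, so no library was counted as a duplicate. Gene models are those of GENCODE 44, where 62666 of the genes were found. Pattern distances used log2 CPM with a prior count of 2. The fits were tested on simulated data. Poisson intervals cover counting error only. Fits with each batch left out were added after the data were seen.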

Additional observations from a re-analysis of the deposited data

Results flagged for a closer look

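For 6 genes named here the effect of EC and the effect of PG/VG, both taken against the same control libraries, differed from each other by edgeR's quasi-likelihood test of EC vs. PG/VG, with Benjamini-Hochberg adjustment over all genes tested. None of them is among the 10 genes of prostaglandin E2 synthesis and breakdown. CYP1A1 differed by an LFC of 2.47 (adjusted p = 1.06e-05) and CYP1B1 by 1.56 (adjusted p = 7.54e-08), each higher in EC in 3 of 3 batches. The study had already reported both among the genes most raised in this comparison. NQO1 differed by 0.481 (adjusted p = 0.000698) and HMOX1 by 0.554 (adjusted p = 0.00265), also in 3 of 3 batches, and the call of HMOX1 was lost without PG/VG replicate 2 (adjusted p = 0.0529). CEBPD differed by 0.59 (adjusted p = 0.0105), in 3 of 3 batches, a call lost without PG/VG replicate 3 or 4 or EC replicate 4 (up to 0.0971). IL1A differed by 0.523 (adjusted p = 0.0391), in 3 of 3 batches, a call lost without PG/VG replicate 2 or 3 or any EC library (up to 0.41).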

How the results depend on the processing

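The calls rest on the batch term. With no replicate block, none of the 10 genes and none of the wider pathway genes passed in EC vs. control (0 and 0) or in PG/VG vs. control (0 and 0), and over all genes 16, 1 and 1 passed in the 3 treatment comparisons. Under RLE or library size scaling, without the count filter, with at least 10 counts in every library, with the 2 groups alone, with DESeq2 and with ComBat-Seq and DESeq2, 2 or 3 of the 10 genes passed in each comparison with control, PTGES and PTGES2 each time. Wider pathway genes past the threshold in EC vs. PG/VG numbered 1 with library size only and 4 with ComBat-Seq and DESeq2. Without batch 2, PTGES2 alone of the 10 genes and 6 wider genes passed for EC against control. For PG/VG against control PTGES, PTGES2 and 2 wider genes passed. Without batch 3, PTGS2, PTGES2 and 7 wider genes passed in EC, and PTGES2 alone of the 10 and 0 wider genes in PG/VG. Without batch 4, PTGES, PTGES2 and 7 wider genes passed in EC. In PG/VG PTGES alone of the 10 passed, with FADS1 and FADS2 still among the wider genes. With 1 library left out, 1 to 3 of the 10 and 6 to 11 wider genes passed in EC vs. control (fewest of the 10 without control replicate 2 or EC replicate 2), 0 to 2 and 0 to 5 in PG/VG vs. control (none of the 10 without control replicate 3 or PG/VG replicate 4), 0 and 0 in EC vs. PG/VG, and 2 to 4 of the 10, HPGD counted, in batch 4 against batches 2 and 3. No value that passed changed sign. Leaving out 1 library or batch turned the sign of values of the 10 genes that had not passed, for PTGS1, PTGR1 and PTGER4 in EC and for PLA2G4A, PTGS2, PTGER2, PTGER4 and PTGR1 in PG/VG, each against control, for all but PLA2G4A, PTGS1 and PTGS2 in EC vs. PG/VG, and for PTGES and PTGR1 in the batch comparison. Over all genes, EC vs. PG/VG gave 32 to 208 calls with 1 library left out, fewest without PG/VG replicate 2, against 137. Of values that did not pass, library size scaling turned the sign of PTGER2 in EC vs. PG/VG, of PTGR1 in PG/VG vs. control (as the fit with no replicate block did for PLA2G4A) and of PTGES3 and PTGR1 in the batch comparison, and it split all calls of EC vs. control into 1863 up and 486 down, against 1294 and 863 with TMM, those of PG/VG vs. control into 609 and 236, against 422 and 305, and those of EC vs. PG/VG into 145 and 31, against 89 and 48. DESeq2 split the EC calls against control into 876 and 850. Over all genes, PG/VG vs. control gave 1735 calls with ComBat-Seq and DESeq2 and 1179 with the 2 groups alone, and EC vs. PG/VG gave 658, 318 and, without the filter, 309. Leaving out batch 2, 3 or 4 gave 1515, 971 and 1216 calls for EC and 319, 249 and 324 for PG/VG, each against control, and 46, 110 and 80 in EC vs. PG/VG. The calls of MBOAT2 and JUN in EC were lost with library size scaling. The cause of these differences was not tested.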
